A study of Mus musculus with 10 samples.

Results

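The genes described here are 10 neuropeptide precursors of mouse cortex and its neighbouring regions, Sst, Npy, Vip, Cck, Crh, Gal, Penk, Pdyn, Tac1 and Tac2. They were chosen by name, and each was found as 1 row among the 35275 genes of the deposited table. The libraries come from motor cortex of C57BL/6 mice aged 22 postnatal days. The 2 groups were 5 mice with an astrocyte conditional knockout of membralin (Astro-mem KO, here KO) and 5 wild-type mice (WT). Membralin, the product of Tmem259, sits in the membrane of the endoplasmic reticulum. The sources used here give neither the Cre driver nor the alleles that the WT mice carry. Levels are in FPKM, fragments scaled by gene length and by the assigned fragments of the library, as the authors deposited them.

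Neuropeptides are made as long precursors in the endoplasmic reticulum, cut by proprotein convertases in dense-core vesicles, and released to act on G protein-coupled receptors. In cortex most are made by subsets of inhibitory interneurons: Sst and Npy in cells derived from the medial ganglionic eminence, Vip and part of Cck in cells of the caudal eminence, while Cck is also made by pyramidal neurons. In the striatum, which lies below the cortex, Penk marks projection neurons of the indirect pathway, and Tac1 and Pdyn mark those of the direct pathway.

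Libraries held 22968013 to 27567361 fragments in KO and 22793058 to 28827871 in WT, so depth was alike in both groups. Tmem259 was 16.9 to 26.2 FPKM in 4 KO libraries, 34.4 FPKM in the library labelled KO3, and 23.8 to 32.4 FPKM in WT. Tmem259 was not called (log2 fold change -0.27, limma adjusted p = 0.275), and the other KO libraries overlapped WT. Its level in the library labelled KO3 goes against that label. In bulk tissue, where only astrocytes lack the gene, the level cannot settle a label. Gfap, the astrocyte intermediate filament, was 106 FPKM in the library labelled KO3, 426 to 673 FPKM in the other KO libraries and 79.4 to 114 FPKM in WT. The members' results are therefore given with and without the library labelled KO3, and those of other genes where they bear on a call. Y-linked transcripts were present in 2 libraries of each group. Cortical excitatory markers were present throughout, with Slc17a7 at 875 ± 91.0 FPKM in KO and 777 ± 38.7 FPKM in WT (SD, n = 5 each).

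Promoter sequences are shown for 4 genes that were higher in KO and for Vip, which was not, because somatostatin and several other peptide genes are textbook targets of CREB through the cAMP response element. Windows run from 250 bases before to 50 bases after a RefSeq start site (build GRCm38.p6), and 8 of the 10 genes had at least 1. Capitals mark the short element TGACG, or its reverse complement CGTCA, and the full palindrome TGACGTCA, which holds the short element on both strands.
Sst, chr16:23890795-23891094, minus strand: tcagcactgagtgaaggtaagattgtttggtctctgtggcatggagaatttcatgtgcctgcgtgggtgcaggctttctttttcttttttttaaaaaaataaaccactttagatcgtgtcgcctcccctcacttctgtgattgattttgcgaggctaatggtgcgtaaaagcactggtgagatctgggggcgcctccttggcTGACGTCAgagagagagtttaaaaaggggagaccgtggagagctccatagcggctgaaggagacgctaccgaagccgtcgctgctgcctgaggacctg
Npy, chr6:49822460-49822759, plus strand: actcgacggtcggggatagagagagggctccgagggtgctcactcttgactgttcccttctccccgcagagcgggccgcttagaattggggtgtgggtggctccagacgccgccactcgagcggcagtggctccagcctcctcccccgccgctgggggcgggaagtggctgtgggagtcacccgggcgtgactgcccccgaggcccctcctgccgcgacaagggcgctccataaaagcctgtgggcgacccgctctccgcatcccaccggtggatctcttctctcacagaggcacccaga
Gal, chr19:3414495-3414794, minus strand: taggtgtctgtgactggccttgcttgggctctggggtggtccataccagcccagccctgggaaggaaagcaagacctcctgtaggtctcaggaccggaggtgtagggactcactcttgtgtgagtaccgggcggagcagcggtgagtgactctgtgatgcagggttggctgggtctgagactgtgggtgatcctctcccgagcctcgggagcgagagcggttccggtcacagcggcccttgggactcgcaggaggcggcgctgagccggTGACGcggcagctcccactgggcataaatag
Tac1, chr6:7554811-7555110, plus strand: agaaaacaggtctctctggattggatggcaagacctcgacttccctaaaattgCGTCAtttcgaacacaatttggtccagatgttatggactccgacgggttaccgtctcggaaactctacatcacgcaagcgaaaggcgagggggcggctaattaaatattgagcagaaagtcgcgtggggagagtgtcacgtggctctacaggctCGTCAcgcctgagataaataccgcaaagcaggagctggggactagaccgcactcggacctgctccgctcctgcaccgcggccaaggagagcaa
Vip, chr10:5638968-5639267, plus strand: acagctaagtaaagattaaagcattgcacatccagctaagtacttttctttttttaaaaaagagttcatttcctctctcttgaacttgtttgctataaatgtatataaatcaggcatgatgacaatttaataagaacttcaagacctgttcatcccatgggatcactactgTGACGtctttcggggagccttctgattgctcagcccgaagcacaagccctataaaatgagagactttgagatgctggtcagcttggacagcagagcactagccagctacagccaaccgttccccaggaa
Sst was the one gene of the 8 whose window held the full palindrome, starting at position -48 from the start site. The short element was in the windows of Sst, Tac1, Vip, Cck and Gal, and was not found in those of Npy, Pdyn and Tac2. Among all 32851 RefSeq promoter windows, 1.79% held the full palindrome and 20.8% the short element, on either strand. The AP-1 letters TGANTCA were in none of the members' windows and in 7.81% of all windows. The STAT letters TTCNNNGAA were in 1 of the 2 Pdyn windows and in 8.30% of all windows. Genes with the short element stood both among those higher in KO (Sst, Tac1 and Gal) and among those that did not pass the test (Vip and Cck).

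The comparison of KO with WT asks which peptide mRNAs differ in cortex when astrocytes lack membralin. All 10 genes passed the filter of a mean of 0.5 FPKM, and 7 rose in KO: Sst, Npy, Tac2, Gal, Penk, Pdyn and Tac1. Cck, Vip and Crh did not pass, and none fell. Genes were called at an adjusted p under 0.05 in limma, and 13.3% of the 14497 tested genes passed, 9.77% as higher and 3.51% as lower in KO. With median-of-ratios scaling that split was 608 higher and 945 lower, against 1417 and 509 with FPKM as deposited. The exact permutation p given for single genes compares mean FPKM and is not adjusted over genes. The median log2 fold change, KO over WT on the log2(FPKM + 1) scale, was 0.74 over the 10 genes and 0.08 over all tested genes. Without the library labelled KO3 the same 7 genes were called, where 26.0% of all genes were called, 19.6% higher and 6.36% lower. With KO2, KO4 or WT1 left out instead, 2 genes of the whole table were called in each fit. The calls lost in those fits, given below, are therefore not particular to a gene. No member had groups that did not overlap, as 7.55% of all tested genes did (5.70% higher and 1.85% lower in KO). The KO5 library was the highest of all 10 libraries for the 7 genes that rose, and the library labelled KO3 was the lowest KO library for 6 of them. In bulk tissue, more cells of a type and more RNA per cell cannot be told apart, nor can fewer cells and less RNA per cell. The plot of FPKM by library shows the rise and the place of the library labelled KO3.

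**Figure D1:**
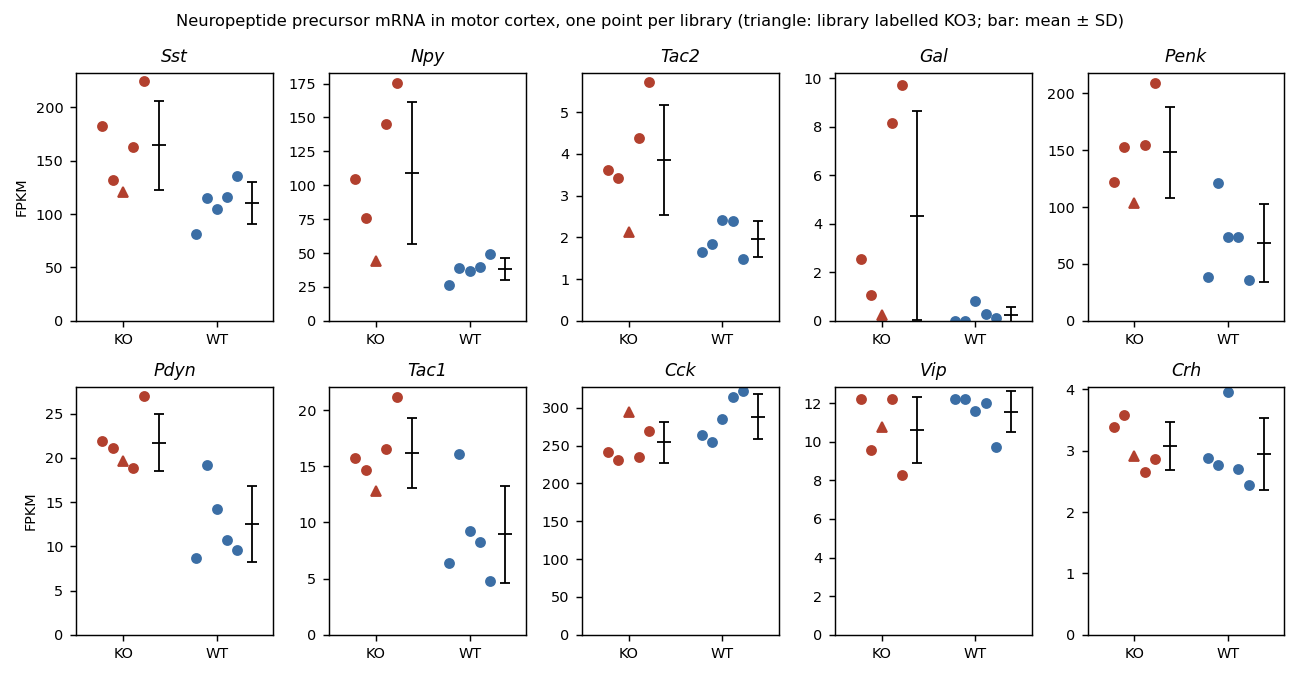
FPKM of the 10 precursor genes (y axes, each from 0) in 5 KO libraries (red) and 5 WT libraries (blue), with mean ± SD as black bars and the library labelled KO3 as a triangle. For Npy 4 KO libraries sit above every WT library at 75.6 to 175 FPKM, while for Cck 3 KO libraries, at 231 to 242 FPKM, sit below every WT library.

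Sst encodes somatostatin, an inhibitory peptide of dendrite-targeting interneurons (chromosome 16, 23889581 to 23890844, minus strand, mm10). Its level was 182, 132, 120.4, 163 and 225 FPKM in KO1 to KO5, against 81.5, 115, 104, 116 and 136 FPKM in WT1 to WT5. Of the KO libraries 3 lay above every WT library, and KO2 and KO3 lay within the WT range. The means were 164 ± 41.7 FPKM in KO and 111 ± 19.9 FPKM in WT (SD, n = 5 each), a ratio of 1.49. Sst rose by 0.55 in log2 (SE 0.17, limma adjusted p = 0.0482; exact permutation p = 0.0238), or by 0.65 with the library labelled KO3 left out (limma adjusted p = 0.0120). Omitting any other single library ended the call, with limma adjusted p from 0.0526 without WT5 to 0.111 without WT1. Scaling by the median of ratios also ended it (log2 fold change 0.45, limma adjusted p = 0.0971).

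Npy encodes neuropeptide Y, which many somatostatin cells and neurogliaform cells of cortex make (chromosome 6, 49822710 to 49829507, plus strand). It was 105, 75.6, 43.8, 145 and 175 FPKM in KO1 to KO5, against 26.8, 38.6, 36.4, 39.4 and 49.1 FPKM in WT1 to WT5. The 4 KO libraries other than KO3 stood above all of WT, and KO3 stood inside the WT range. Npy averaged 109 ± 52.6 FPKM in KO and 38.1 ± 7.99 FPKM in WT (SD, n = 5 each), a ratio of 2.86. Its log2 difference was 1.36 (SE 0.31, limma adjusted p = 0.0227; exact permutation p = 0.0159), or 1.65 with the library labelled KO3 left out (limma adjusted p = 0.000527). The call was lost without KO1 (limma adjusted p = 0.0523), KO2 (0.0515), KO4 (0.0631) or WT1 (0.0604).

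Npy and Sst are partly made by the same cells, so their balance within a library was also compared. The ratio of Npy to Sst FPKM within a library was 0.576, 0.573, 0.364, 0.891 and 0.780 in KO1 to KO5, against 0.328, 0.336, 0.349, 0.339 and 0.361 in WT1 to WT5. The WT libraries spanned a narrow range, and every KO library lay above it, KO3 by the smallest margin. On the log2 scale the ratio differed by 0.83 (exact two-sided permutation p = 0.00794, the smallest that 252 assignments allow), and by 1.01 without the library labelled KO3. It was 1 of 10 ratios computed, all chosen after the values were seen, and its p adjusted over the 10 was 0.0529, which did not pass. The ratio of Sst to Lhx6, a transcription factor of the same interneuron lineage, was 23.4 to 32.4 in KO and 13.6 to 24.8 in WT (log2 difference 0.55, exact permutation p = 0.0159, adjusted p = 0.0529). Lhx6 itself was 6.10 ± 1.63 FPKM in KO and 5.96 ± 0.56 FPKM in WT (SD, n = 5 each; limma adjusted p = 0.983). The ratio of Sst to Gad2, which makes the transmitter GABA, did not pass, at 1.78 to 2.66 in KO and 2.22 to 5.05 in WT (log2 difference -0.37, exact permutation p = 0.159). Npy to Gad2 did not pass either, at 0.872 to 1.87 in KO and 0.775 to 1.82 in WT (log2 difference 0.46, exact permutation p = 0.175). Npy to Lhx6 was 8.51 to 28.8 in KO and 4.45 to 8.96 in WT (log2 difference 1.38, exact permutation p = 0.0159, adjusted p = 0.0529).

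**Figure D2:**
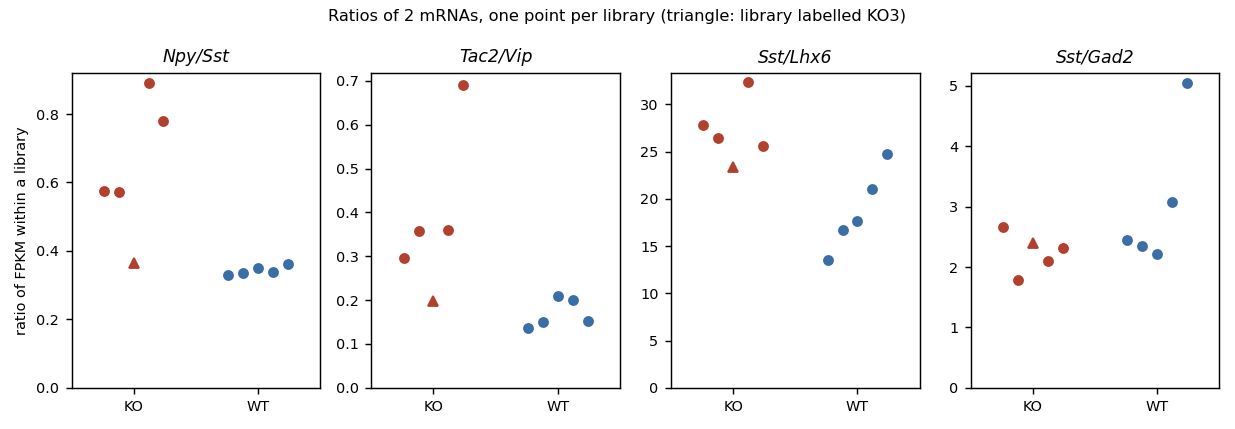
Ratio of the FPKM of 2 genes within each library (y axes, from 0) for Npy/Sst, Tac2/Vip, Sst/Lhx6 and Sst/Gad2, in KO (red; triangle, library labelled KO3) and WT (blue). For Npy/Sst the KO libraries span 0.364 to 0.891 and the WT libraries 0.328 to 0.361.

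Gal encodes galanin, a peptide known to rise in injured neurons and made mainly outside cortex in the uninjured brain (chromosome 19, 3409919 to 3414472, minus strand). It was 2.55, 1.05, 0.242, 8.15 and 9.72 FPKM in KO1 to KO5, against 0, 0, 0.801, 0.261 and 0.114 FPKM in WT1 to WT5. KO4 and KO5 stood far above the rest, KO1 and KO2 were lower but still above all of WT, and KO3 fell within WT. These levels correspond to 374 fragments over the KO group and 20 over the WT group, so that the WT levels, and the 4 fragments of KO3, rest on few reads. Gal averaged 4.34 ± 4.31 FPKM in KO and 0.235 ± 0.334 FPKM in WT (SD, n = 5 each), a ratio of 18.5. WT3 held 13 of the 20 WT fragments, and without it the WT mean was 0.0938 FPKM and the ratio 46.3. On the log2(FPKM + 1) scale, which understates the change of low genes, it rose by 1.69 (SE 0.51, limma adjusted p = 0.0467; exact permutation p = 0.0238). Omitting any single library other than KO3 ended the call, with limma adjusted p from 0.0585 without WT3 to 0.115 without KO4. Median-of-ratios scaling (1.64, limma adjusted p = 0.0568) and a fit without a variance trend (limma adjusted p = 0.0553) ended it too. With the library labelled KO3 left out it was 2.10 (limma adjusted p = 0.00460), and in limma voom on recovered fragments it was 4.36 (limma adjusted p = 0.0780).

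Tac2 encodes the precursor of neurokinin B, found in cortical interneurons that overlap with Vip cells (chromosome 10, 127724478 to 127731767, plus strand). Its level was 3.62, 3.43, 2.13, 4.39 and 5.72 FPKM in KO1 to KO5, against 1.65, 1.83, 2.42, 2.40 and 1.48 FPKM in WT1 to WT5. Again the 4 KO libraries other than KO3 lay above every WT library. Tac2 averaged 3.86 ± 1.32 FPKM in KO and 1.96 ± 0.43 FPKM in WT (SD, n = 5 each), a ratio of 1.97. It rose by 0.68 in log2 (SE 0.17, limma adjusted p = 0.0295; exact permutation p = 0.0238) or by 0.83 with the library labelled KO3 left out (limma adjusted p = 0.00172). The call was lost without KO1, KO2, KO4, KO5, WT1, WT2 or WT5, with limma adjusted p from 0.0525 without KO5 to 0.0801 without KO4. Relative to Vip the Tac2 level was 0.198 to 0.690 in KO and 0.136 to 0.209 in WT (log2 difference 1.07, exact permutation p = 0.0238, adjusted p = 0.0595 over the 10 ratios).

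Penk encodes proenkephalin, the source of the enkephalins, which act on mu and delta opioid receptors (chromosome 4, 4133531 to 4138819, minus strand). It was 122, 153, 104, 154 and 209 FPKM in KO1 to KO5, against 38.5, 121, 73.7, 73.7 and 35.8 FPKM in WT1 to WT5. WT2 reached the KO range, and the other WT libraries lay below every KO library. Penk averaged 148 ± 40.1 FPKM in KO and 68.5 ± 34.5 FPKM in WT (SD, n = 5 each), a ratio of 2.17. The log2 difference was 1.21 (SE 0.30, limma adjusted p = 0.0273; exact permutation p = 0.0159), or 1.32 with the library labelled KO3 left out (limma adjusted p = 0.010). Without KO1, KO2, KO4, KO5, WT1 or WT5 it was not called, with limma adjusted p from 0.0534 without KO1 to 0.0723 without KO4. An antisense transcript that overlaps Penk, A830012C17Rik, reached at most 0.0527 FPKM.

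Pdyn encodes prodynorphin, the source of the dynorphins, ligands of the kappa opioid receptor (chromosome 2, 129686565 to 129699844, minus strand). It was 21.9, 21.1, 19.7, 18.8 and 27.0 FPKM in KO1 to KO5, against 8.70, 19.2, 14.2, 10.7 and 9.61 FPKM in WT1 to WT5. As for Penk, WT2 was the only WT library inside the KO range. The means were 21.7 ± 3.22 FPKM in KO and 12.5 ± 4.30 FPKM in WT (SD, n = 5 each), and the log2 difference was 0.80 (SE 0.18, limma adjusted p = 0.0215; exact permutation p = 0.0159), or 0.83 with the library labelled KO3 left out (limma adjusted p = 0.00923). The call was lost without KO2 (limma adjusted p = 0.0532), KO4 (0.0558) or WT1 (0.0555). In each of these fits 2 genes of the whole table were called.

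Tac1 encodes the precursor of substance P and neurokinin A (chromosome 6, 7554879 to 7565834, plus strand). It was 15.7, 14.6, 12.8, 16.5 and 21.2 FPKM in KO1 to KO5, against 6.41, 16.1, 9.24, 8.26 and 4.78 FPKM in WT1 to WT5. Here WT2 exceeded 3 KO libraries, and the other WT libraries lay below all KO libraries. Tac1 averaged 16.2 ± 3.14 FPKM in KO and 8.95 ± 4.33 FPKM in WT (SD, n = 5 each), with a difference of 0.87 in log2 (SE 0.23, limma adjusted p = 0.0346; exact permutation p = 0.0317), or 0.94 with the library labelled KO3 left out (limma adjusted p = 0.0171). It was called in 2 of the 10 fits that left out 1 library, those without KO3 and without WT2; the others gave limma adjusted p from 0.0526 without WT3 to 0.0859 without WT1.

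Penk, Pdyn and Tac1 are also genes of striatal projection neurons, and striatal markers differed between libraries. The summed level of 10 such markers, without the peptide genes, was 488, 528, 429, 408 and 446 FPKM in KO1 to KO5, against 213, 573, 287, 301 and 180.2 FPKM in WT1 to WT5. The order of the WT libraries for Penk and Tac1 (WT2 highest, WT3 and WT4 next, WT1 and WT5 lowest) followed that sum. The KO libraries did not: KO5 and KO4 were the highest for both genes, and KO4 had the lowest sum of the KO group. None of the 10 markers was at 0 in all libraries, and 2 of the 10, Ppp1r1b and Six3, were called higher in KO, as were 9.77% of all tested genes. All 10 had a positive log2 fold change, with a median of 0.70, against 0.08 over all tested genes and 0.74 over the 10 precursors. Drd2, the receptor of indirect pathway neurons, was 18.5 to 24.6 FPKM in KO and 5.73 to 30.8 FPKM in WT (limma adjusted p = 0.120). With the mean log2 level of these markers as a covariate, the log2 fold change of Tac1 was 0.35, which is 39.8% of its value without the covariate. That of Penk was 0.58 (47.8%) and that of Pdyn 0.43 (53.8%). By the same measure Sst kept 103%, Npy 105%, Gal 108% and Tac2 91.5% of theirs. In that fit no gene of the 14497 was called, although 2891 had an unadjusted p under 0.05, and the 7 precursors had limma adjusted p from 0.135 to 0.230. Within libraries, Penk to Drd2 was 5.2 to 8.8 in KO and 3.9 to 6.2 in WT (log2 difference 0.43, exact permutation p = 0.0952). Tac1 to Drd1 was 0.85 to 1.44 in KO and 0.83 to 1.13 in WT (log2 difference 0.17, exact permutation p = 0.333). Neither passed, nor did Penk to Tac1 (log2 difference 0.27, exact permutation p = 0.0556) or Penk to Pdyn (0.37, exact permutation p = 0.119).

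**Figure D3:**
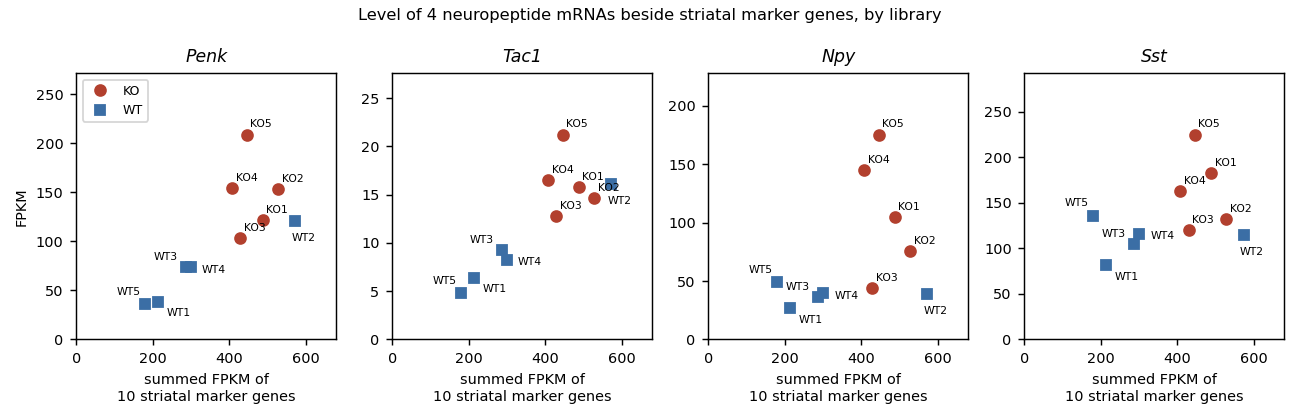
FPKM of Penk, Tac1, Npy and Sst (y axes) against the summed FPKM of 10 striatal marker genes (x axes) in each KO library (red circles) and WT library (blue squares). WT2, with the highest sum of 573 FPKM, lies among the KO libraries for Penk and Tac1 and among the other WT libraries for Npy and Sst.

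Cck encodes cholecystokinin and was the most abundant of the 10 mRNAs in both groups (chromosome 9, 121489825 to 121495689, minus strand). It was 242, 231, 294, 235 and 270 FPKM in KO1 to KO5, against 263, 255, 285, 314 and 322 FPKM in WT1 to WT5. In KO1, KO2 and KO4 it lay below every WT library, and KO3 and KO5 lay within the WT range. The means were 254 ± 27.0 FPKM in KO and 288 ± 29.8 FPKM in WT (SD, n = 5 each; log2 fold change -0.18, SE 0.09, limma adjusted p = 0.184), and with the library labelled KO3 left out the difference was -0.23 (limma adjusted p = 0.0605). Vip encodes vasoactive intestinal polypeptide of interneurons that inhibit other interneurons (chromosome 10, 5639218 to 5647614, plus strand). It was 12.2, 9.58, 10.8, 12.2 and 8.30 FPKM in KO1 to KO5, against 12.2, 12.2, 11.6, 12 and 9.70 FPKM in WT1 to WT5, with a log2 fold change of -0.12 (SE 0.10, limma adjusted p = 0.431). KO5, the highest library for the 7 genes that rose, was the lowest of all 10 for Vip. Crh encodes corticotropin-releasing hormone (chromosome 3, 19693401 to 19695396, minus strand). Its level was 3.38, 3.58, 2.91, 2.65 and 2.87 FPKM in KO1 to KO5, against 2.88, 2.76, 3.96, 2.70 and 2.44 FPKM in WT1 to WT5 (log2 fold change 0.05, SE 0.10, limma adjusted p = 0.745). For Vip 2 KO libraries lay below and 1 above every WT library, and for Crh all KO libraries lay within the WT range. With the library labelled KO3 left out the log2 fold change was -0.13 for Vip (limma adjusted p = 0.413) and 0.07 for Crh (limma adjusted p = 0.682). A p above the threshold does not show that these levels were equal.

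FPKM is a level per length, so the genes can be ranked within a group. In KO the order of mean levels was Cck, Sst, Penk, Npy, Pdyn, Tac1, Vip, Gal, Tac2 and Crh. In WT it was Cck, Sst, Penk, Npy, Pdyn, Vip, Tac1, Crh, Tac2 and Gal. Cck stood above Sst, and Npy above Pdyn, in all libraries of both groups with no overlap in range. Sst and Penk overlapped in range in both groups, as did Penk and Npy. Gal was last in WT, below Tac2 in all 5 WT libraries, and in KO it overlapped Vip, Tac2 and Crh. Cck made up 35.5% of the summed FPKM of the 10 genes in KO and 53.3% in WT, and Npy 14.2% in KO and 6.96% in WT (means of 5 libraries each). The sum itself was 736 ± 135 FPKM in KO and 543 ± 58.7 FPKM in WT (SD, n = 5 each).

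Of 25 receptor genes of these peptides and the related peptide PACAP, 24 were in the table and 19 passed the filter; 4 rose and none fell, with 7 higher and 2 lower without the library labelled KO3. Over all tested genes 9.77% were higher and 3.51% lower, or 19.6% and 6.36% without that library. The median log2 fold change of the receptors was 0.18, against 0.08 over all tested genes. Tacr1, the receptor of substance P, was 3.2, 3.64, 2.29, 3.36 and 3.83 FPKM in KO1 to KO5, against 1.22, 2.40, 1.55, 1.34 and 0.583 FPKM in WT1 to WT5. WT2 again was the WT library that reached into the KO range, as for Tac1. Tacr1 rose by 0.85 as a log2 fold change (SE 0.17, limma adjusted p = 0.0186). Oprk1, the kappa receptor to which dynorphins bind, averaged 2.42 ± 0.32 FPKM in KO and 1.45 ± 0.57 FPKM in WT and rose by 0.51 (SD, n = 5 each; limma adjusted p = 0.0346). Adcyap1r1, the PACAP receptor, averaged 57.1 ± 7.74 FPKM in KO and 44.7 ± 1.55 FPKM in WT (SD, n = 5 each; limma adjusted p = 0.0273). Vipr2, a receptor of Vip and PACAP, averaged 1.58 ± 0.66 FPKM in KO and 0.563 ± 0.488 FPKM in WT (SD, n = 5 each; limma adjusted p = 0.0446). The somatostatin receptor Sstr1 (log2 fold change 0.46, limma adjusted p = 0.0812), the delta opioid receptor Oprd1 (0.33, limma adjusted p = 0.0510) and the neuropeptide Y receptor Npy1r (-0.30, limma adjusted p = 0.124) did not pass in the fit of all libraries. With the library labelled KO3 left out these 3 were called: Sstr1 at 0.60 (limma adjusted p = 0.00905), Oprd1 at 0.40 (0.00838) and Npy1r at -0.37 (0.0416). Oprm1 was then also higher (0.46, limma adjusted p = 0.0478) and Crhr1 lower (-0.66, limma adjusted p = 0.00386), and Tacr1, Oprk1, Adcyap1r1 and Vipr2 stayed called, at 0.94, 0.54, 0.41 and 0.77. With median-of-ratios scaling Adcyap1r1, Oprk1 and Vipr2 were not called (limma adjusted p from 0.0554 to 0.0595). Without KO2, KO4 or WT1, where 2 genes of the whole table were called, none of the 4 was (limma adjusted p from 0.0515 to 0.114). Without KO1, KO5, WT2, WT4 or WT5 between 1 and 3 were called. Fits with the mean log2 level of striatal or of olfactory bulb markers (described below) as a covariate called no gene of the table. There the 4 receptors had limma adjusted p from 0.135 to 0.868. With either score and without the library labelled KO3, Adcyap1r1 and Tacr1 were called and Oprk1 and Vipr2 were not. Galr1, a galanin receptor, was below the filter at 0.225 to 0.789 FPKM in KO and 0.170 to 0.375 FPKM in WT.

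Of 17 genes of peptide processing and dense-core vesicles 4 rose and 2 fell. Their median log2 fold change was 0.09, near the 0.08 over all tested genes. Over all tested genes 9.77% were higher and 3.51% lower, or 19.6% and 6.36% without the library labelled KO3. Without the library labelled KO3, 6 rose and 3 fell; the genes added were Vgf and Ptprn, higher, and Pcsk2, lower. The 6 genes called with all libraries then had log2 fold changes of 1.05 for Chga, 0.93 for Scg2, 0.44 for Chgb, 0.46 for Ctsl, -0.80 for Cadps2 and -0.41 for Pcsk1 (limma adjusted p from 0.000454 to 0.00395). Chga, chromogranin A, a core protein of these vesicles, was 107, 110.5, 74.0, 137 and 194 FPKM in KO1 to KO5, against 52.7, 66.5, 73.2, 71.4 and 57.6 FPKM in WT1 to WT5. The KO libraries all exceeded the WT libraries, KO3 by a small margin. Chga rose by 0.88 as a log2 fold change (SE 0.20, limma adjusted p = 0.0227). Scg2, secretogranin II, averaged 116 ± 23.1 FPKM in KO and 65.1 ± 13.1 FPKM in WT (SD, n = 5 each) and its groups did not overlap (log2 fold change 0.83, limma adjusted p = 0.0186). Chgb, chromogranin B, and Ctsl, cathepsin L, rose by 0.36 and 0.39 (limma adjusted p = 0.0302 and 0.0260). Cadps2, which primes dense-core vesicles for release, was lower in every KO library, at 12.2 to 23.7 FPKM in KO and 26.1 to 30.2 FPKM in WT (log2 fold change -0.68, limma adjusted p = 0.0186). Pcsk1, a convertase that cuts precursors, averaged 9.05 ± 1.5 FPKM in KO and 11.5 ± 0.44 FPKM in WT (SD, n = 5 each) and fell by 0.33 on the log2 scale (limma adjusted p = 0.0326). Cpe, the carboxypeptidase that trims cut peptides, averaged 1209 ± 99.7 FPKM in KO and 1115 ± 63.7 FPKM in WT (SD, n = 5 each) and did not pass (limma adjusted p = 0.361). With median-of-ratios scaling Chgb was not called (limma adjusted p = 0.0570). Without KO2, KO4 or WT1, where 2 genes of the whole table were called, none of the 6 was (limma adjusted p from 0.0515 to 0.0853). Without KO1, KO5 or any other WT library 3 to 5 were called. With either marker score as a covariate none of the 6 was called (limma adjusted p from 0.135 to 0.281). With the library labelled KO3 also left out, all 6 were called with the striatal score. With the olfactory bulb score all but Ctsl were.

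Of 20 genes of other neuropeptides and of Crhbp, which binds Crh, 15 passed the filter and 2 rose: Crhbp and Trh. Their median log2 fold change was 0.28, and without the library labelled KO3 3 rose (Adcyap1 in addition) and 1, Nppc, fell. These counts lie near the shares over all genes, 9.77% higher with all libraries and 19.6% higher without that one. Crhbp, which Sst cells of cortex express, was 14.5, 12.8, 6.01, 15.4 and 18.8 FPKM in KO1 to KO5, against 6.86, 6.42, 6.50, 8.0 and 6.66 FPKM in WT1 to WT5. The library labelled KO3 was the lowest of all 10, and the other 4 KO libraries lay above WT. Crhbp rose by 0.80 as a log2 fold change (SE 0.22, limma adjusted p = 0.0344), or by 1.04 with the library labelled KO3 left out (limma adjusted p = 8.9e-05). Trh, thyrotropin-releasing hormone, averaged 6.11 ± 2.61 FPKM in KO and 2.39 ± 1.21 FPKM in WT (SD, n = 5 each; log2 fold change 1.08, limma adjusted p = 0.0352). Cort, a relative of Sst made by part of the same cells, averaged 3.36 ± 0.81 FPKM in KO and 4.10 ± 0.48 FPKM in WT (SD, n = 5 each; limma adjusted p = 0.189). Without KO2, KO4, KO5, WT1, WT2 or WT5 neither Crhbp nor Trh was called (limma adjusted p from 0.0526 to 0.0918), and without KO1 or WT3 only 1 of them was. With either marker score as a covariate neither was called (limma adjusted p from 0.156 to 0.289). With the library labelled KO3 also left out, Crhbp was called with either score and Trh was not.

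**Figure D4:**
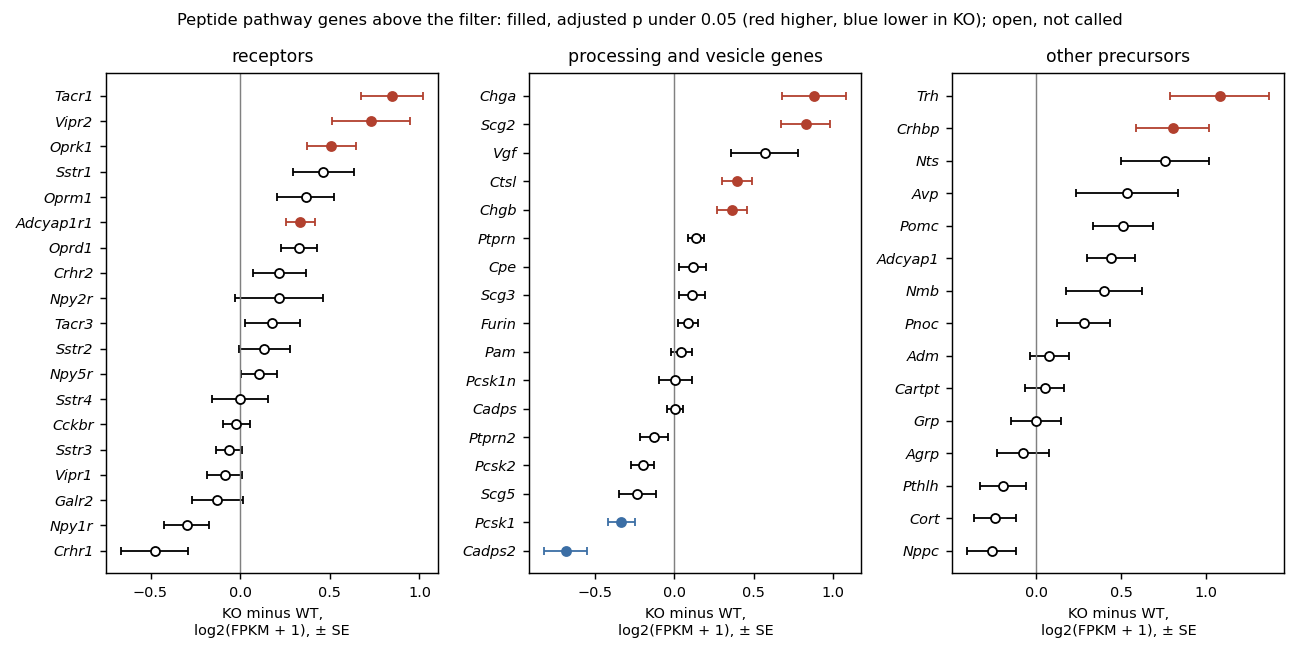
Log2 fold change of KO over WT on the log2(FPKM + 1) scale with its SE (x axes) for the 19 receptor genes, 17 processing and vesicle genes and 15 other precursor genes that passed the filter (rows). Filled points passed at an adjusted p under 0.05 in limma, red higher and blue lower in KO; 4 of 19, 6 of 17 and 2 of 15 did.

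Markers of other cells and regions moved beside these genes. Of 7 GABAergic genes 6 were higher in KO (Gad1, Gad2, Slc32a1, Dlx1, Dlx2 and Dlx5), with and without the library labelled KO3. Over all tested genes 9.77% were higher and 3.51% lower, or 19.6% and 6.36% without that library. The 7 genes summed to 223 to 303 FPKM in KO and 135 to 210.5 FPKM in WT. After subtraction of group means, Pearson r of Gad2 was 0.89 with Penk, 0.86 with Tac1 and 0.82 with Tac2. It was 0.75 with Pdyn, 0.65 with Gal, 0.54 with Npy and 0.375 with Sst. In the interneuron lineage of Sst, Nxph1 rose and Pvalb, the marker of fast-spiking cells, fell (log2 fold change -0.66, limma adjusted p = 0.0338). Lhx6 (log2 fold change 0.0049, limma adjusted p = 0.983) and Sox6 (-0.0375, limma adjusted p = 0.707) did not pass. The 4 genes summed to 40.4 to 49.9 FPKM in KO and 47.8 to 71.1 FPKM in WT. Pvalb was the largest part of that sum in each library, at 15.8 to 29.8 FPKM in KO and 27.7 to 52.5 FPKM in WT. In the lineage of Vip, Calb2 rose, Lamp5 fell and the other 3 genes did not pass, with sums of 47.4 to 100.6 FPKM in KO and 68.2 to 90.5 FPKM in WT. Calb2 was 28.2, 38.1, 33.55, 34.8 and 15.1 FPKM in KO1 to KO5, against 7.68, 9.51, 24.7, 18.1 and 5.07 FPKM in WT1 to WT5. Within each group its order of libraries was that of the mean log2 level of the olfactory bulb markers given next. Olfactory bulb markers, 3 of 8 of them called higher, summed to 36.6 to 104 FPKM in KO and 17.8 to 54.2 FPKM in WT, and none was at 0 in all libraries. Hypothalamic markers, peptide genes among them, summed to 2.83 to 11.5 FPKM in KO and 1.81 to 3.31 FPKM in WT, with the highest sum in KO5. Of these 7 genes 3 passed the filter (Pomc, Agrp and Avp), and none of the 3 was called. The part that the GABAergic, interneuron, olfactory bulb and hypothalamic markers have in each result was not tested beyond the fits that follow.

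When the olfactory bulb score, the mean log2 level of those markers, entered the fit, the 7 genes kept log2 fold changes of 0.70 to 2.06, with limma adjusted p from 0.165 to 0.221, and no gene of the table was called, although 2672 had an unadjusted p under 0.05. With that covariate and without the library labelled KO3, Sst, Npy, Tac2 and Gal were called, and Penk (limma adjusted p = 0.106), Pdyn (0.0698) and Tac1 (0.106) were not. The striatal score without that library left Npy, Tac2, Gal and Penk called, and Sst had limma adjusted p = 0.0503. Omp marks olfactory neurons, and within the 4 KO and 2 WT libraries where it reached 1 FPKM the log2 fold changes of the 7 genes were 0.34 to 1.13, all higher in KO, and none passed (limma adjusted p from 0.356 to 0.521; 1 gene of the table was called). With a score of Y-linked genes as a covariate all 7 genes were called.

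**Figure D5:**
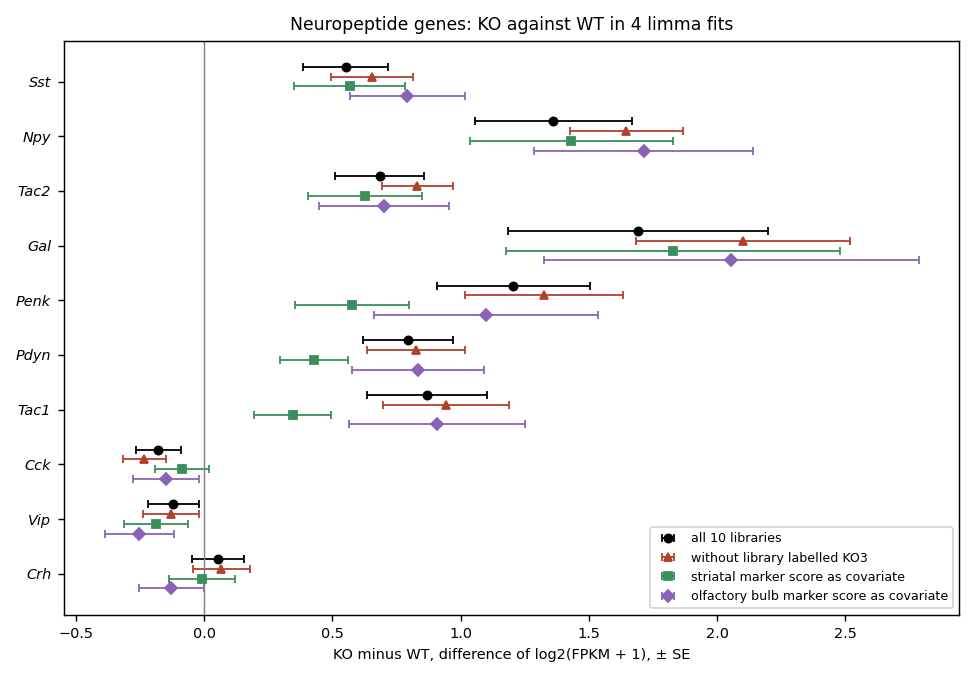
Difference of log2(FPKM + 1), KO minus WT, with its SE (x axis) for each of the 10 genes (rows) in 4 limma fits: all libraries (black circles), without the library labelled KO3 (red triangles), and with a striatal (green squares) or an olfactory bulb marker score (purple diamonds) as covariate. The striatal score moves Penk, Pdyn and Tac1 to 0.58, 0.43 and 0.35, while Sst, Npy, Gal and Tac2 stay near their values in the fit of all libraries.

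Variation between mice of one genotype was also described. After subtraction of each group's mean from log2(FPKM + 1), Pearson r over the 10 libraries was 0.95 between Penk and Tac1, 0.90 between Pdyn and Tac1, and 0.88 between Npy and Sst. It was 0.89 between Gal and Npy and 0.89 between Gal and Tac2, but 0.31 between Npy and Tac1. With Drd2 it was 0.92 for Tac1 and 0.87 for Penk, and -0.03 for Npy and -0.01 for Sst. These r are descriptions: all points include the library labelled KO3 and come from the same 10 libraries. Among 13148 protein-coding genes the most alike to Tac2 were Chga and Ap2a2 (r 0.97 and 0.96), to Npy Ly6g6e and Uchl1 (both 0.96) and to Gal Srsf6 and Asns (0.98 and 0.97). Sst was most like Hax1 and Pfkfb3 (both 0.94), Penk most like Slc35d3 and Usp29 (0.97 and 0.96), Pdyn most like Asic1 and Fam120b (0.97 and 0.93) and Tac1 most like Gripap1 and Srgap1 (both 0.99). Vip was most like Ddhd2 and Skida1 (0.96 and 0.95), Cck most like Krt12 and Zdhhc3 (0.95 and 0.94) and Crh most like Numa1 and Igsf3 (both 0.95). Such values are reached readily when many genes are ranked over few libraries.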

How the data were processed

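RNA of motor cortex was measured in 5 KO and 5 WT libraries. The values deposited by the authors are FPKM per gene and library, with gene length, per the file headers. Of the build mm10 and the tool DESeq2, both listed in the submitters' processing notes, no use is stated. Aligner, counting tool and annotation: not given in the sources used here. FPKM times gene length gave whole fragments within 0.02 in 100% of values above 0. The 45 pairs of libraries all differed by more than sampling noise (chi-square per gene at least 6.80). Whether the kit marks strand is not stated.

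Linear models of log2(FPKM + 1) were fitted in limma 3.58.1 (R 4.3.3; lmFit, then eBayes with trend), KO against WT, for genes averaging 0.5 FPKM or more, with Benjamini-Hochberg adjustment over all tested genes. Tests were two-sided. Exact permutation tests used 252 assignments, whose smallest p is 0.00794. For single genes they compared mean FPKM, without adjustment over genes, and for ratios they compared mean log2 ratios. They were planned for genes below the filter, and all 10 members passed it. The sample titles do not say that replicate numbers pair the mice, and the main fit left them unpaired. P-values measure the spread between mice as labelled. The step was tested on simulated counts. The text names all 10 members, called genes of the other lists (at most 6 each, of lowest p), and the 2 genes most like each member; other genes were named after their values were seen. The members and lists were chosen with earlier results of these data known. Alternatives covered pseudocount, filter, scaling, variance model, weights, block, covariates and each library left out. Fits with Y-linked, combined or KO3-free striatal scores, the subset by Omp, and the ratios were chosen after seeing the data. Drd1 is listed as Drd1a. Promoter windows are from RefSeq, GRCm38.p6.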

Additional observations from a re-analysis of the deposited data

Results flagged for a closer look

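Among 20 groups of 5 libraries (10 genes in KO and in WT), 2 held a library far from the others of its group, judged by Dixon's test (the gap to the nearest library over the range of the group), which chance flags in about 1 in 20 groups. Vip was 9.70 FPKM in WT5, below the 11.6 to 12.2 FPKM of the other WT libraries. Crh was 3.96 FPKM in WT3, above the 2.44 to 2.88 FPKM of the other WT libraries. Neither gene passed the test of KO against WT.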

How the results depend on the processing

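The 7 genes called higher in KO stayed higher in all 25 alternatives, but their calls did not all hold. The log2 fold changes that lost their call, or for Crh changed sign, were the following, and the cause was not tested. Without a filter Sst 0.55, Npy 1.36, Gal 1.69, Penk 1.21, Pdyn 0.80, Tac1 0.87 and Tac2 0.68. With median-of-ratios scaling Sst 0.45, Crh -0.019 and Gal 1.64. Without a variance trend Sst 0.55 and Gal 1.69. In limma voom Gal 4.36. With the olfactory bulb score Sst 0.79, Npy 1.72, Crh -0.13, Gal 2.06, Penk 1.10, Pdyn 0.83, Tac1 0.91 and Tac2 0.70. With the striatal score Sst 0.57, Npy 1.43, Crh -0.0067, Gal 1.83, Penk 0.58, Pdyn 0.43, Tac1 0.35 and Tac2 0.63. With the olfactory bulb score and without KO3 Crh -0.11, Penk 1.20, Pdyn 0.86 and Tac1 0.97. With the striatal score and without KO3 Sst 0.68, Pdyn 0.46 and Tac1 0.42. With both scores Sst 0.78, Npy 1.73, Crh -0.16, Gal 2.13, Penk 0.62, Pdyn 0.54, Tac1 0.49 and Tac2 0.65. In the libraries with Omp of at least 1 FPKM Sst 0.42, Npy 1.13, Crh -0.058, Gal 1.0, Penk 0.83, Pdyn 0.68, Tac1 0.70 and Tac2 0.34. The count of called genes was 1926. It was 3557 with library weights, 465 without a filter, 0 with either score or both, and 1 in the libraries with Omp of at least 1 FPKM. When 1 library was left out it ran from 2 (without KO2, KO4 or WT1) to 3769 (without KO3). With median-of-ratios scaling, which moved the median of all genes from 0.08 to -0.0023, 608 genes were higher and 945 lower, against 1417 and 509. The sample titles do not say that replicate numbers pair the mice. The correlation of deviations between same-numbered mice was -0.06 to 0.14, and KO4 and KO5 alone correlated best with their own number. Such a correlation cannot settle whether mice were paired. With a replicate block 1271 genes were called, and Gal (1.69), Tac1 (0.87) and Tac2 (0.68) had limma adjusted p = 0.0640, 0.0643 and 0.0577. Leaving out 1 library gave log2 fold changes of Sst 0.43 to 0.65, Npy 1.15 to 1.65, Tac2 0.56 to 0.83, Gal 1.32 to 2.10, Penk 1.01 to 1.45, Pdyn 0.69 to 0.96, Tac1 0.70 to 1.09, Cck -0.23 to -0.14, Vip -0.18 to -0.043, Crh 0.0072 to 0.14. Depth limits Gal and Tac2, with 20 and 217 fragments over the WT group.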
